A study of Mus musculus with 68 samples.

Results

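Prosaposin is cut in the lysosome into the saposins, small proteins that help acid hydrolases to break down glycosphingolipids. Without them lactosylceramide, glucosylceramide and related lipids accumulate in neurons. In lipid storage diseases of the brain, microglia and astrocytes are known to respond to the stored material, and complement C1q, made by microglia, is among the genes that rise. PS-NA mice are hypomorphs: their own prosaposin gene is disrupted and a prosaposin transgene makes the protein at a reduced level. The comparison below asks how the RNA of their cerebellum and cerebrum at 4 wks of age differed from that of WT mice of the same age.

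The data are 8 of the 68 arrays of the series: 4 of PS-NA mice and 4 of WT mice, both on the FVB background. Each genotype has 2 arrays of cerebellum and 2 of cerebrum, and each array carries RNA pooled from 3 mice. The promoter of the transgene that supplies prosaposin in PS-NA mice is not given in the sources used here. The methods give 6 mice for a genotype at an age, which reads as if the cerebellum and cerebrum pools of a genotype drew on the same mice, while the fit treats its 4 arrays as separate. Which pool of cerebellum matches which pool of cerebrum is not stated. Whether the 2 pools of a group came from separate litters is not stated either, so p-values measure the spread between these pools. All values are GCOS signals, a linear brightness per probe set. Differences are PS-NA minus WT on the scale log2(signal + 16) after quantile normalization, with both regions in 1 fit and region as a block (limma). A probe set is called, and is said to have risen or fallen, at an adjusted p under 0.05. A gene stands for the brightest of its probe sets unless a probe set is named.

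The arrays carried the regions on their labels: Gabra6, a GABA receptor subunit of cerebellar granule cells, had signals of 43054 to 50245 in the 4 cerebella and 50.6 to 386.5 in the 4 cerebra. Pools of 1 group correlated at 0.945 to 0.957 over all probe sets. The 3' to 5' ratio of actin, a measure of RNA length, was 0.77 to 0.86 on the log2 scale in WT cerebra and 0.48 to 0.57 on the other 6 arrays. Array medians were 286.4 to 328.1 in PS-NA pools and 334.2 to 387 in WT pools before normalization. Xist, the RNA of the inactive X chromosome, was 3309 to 6286 in the 4 pools numbered 1 and 122 to 435 in the 4 pools numbered 2, so it was high in 1 pool of each group. The part of RNA length and of array brightness in the results was not tested beyond the alternatives of the closing section.

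Psap, the gene of prosaposin, was the gene with the largest fall among those named by rule. PS-NA cerebella read 3685 and 5533 and PS-NA cerebra 6882 and 9432, against 54680 and 49474 in WT cerebella and 49595 and 44170 in WT cerebra. No PS-NA pool came near a WT pool. The difference was -3.07 on the log2 scale (SE 0.23, adjusted p = 6.45e-05), that is 8.37-fold lower, and a second Psap probe set gave 10.7-fold lower. The fall was -3.70 in cerebella and -2.43 in cerebra, and the difference between the regions did not pass the test (adjusted p = 0.121). In pools of other ages Psap differed by -1.71 at 0 days, -3.01 at 12 wks and -2.79 at 18 wks.

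Of 45037 probe sets tested, 1550 were called, which is 3.44%. Of these, 887 rose (1.97% of those tested) and 663 fell (1.47%). With the replicate number as a block 1018 were called. The median size was 1.04 on the log2 scale, 813 differed at least 2-fold and 183 at least 4-fold. In 98.3% of the called probe sets every PS-NA pool lay on the same side of every WT pool in both regions, which held for 17.6% of all probe sets. Counted by the brightest probe set, 226 of 18193 genes rose (1.24%) and 222 fell (1.22%), with a median over all genes of 0.02. With arrays centred on their medians and no quantile step, 81.7% of the called probe sets were higher in PS-NA mice in place of 57.2%, and the median of all probe sets was 0.15. At the thresholds the study used, a false discovery rate of 0.2 and a 1.5-fold difference, 5287 probe sets passed in this fit. Leaving out 1 of the 8 pools left 249 to 1309 calls, the fewest without the second PS-NA cerebrum pool.

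A small group of genes differed in the same direction at all 4 ages measured. Probe sets counted here were called at 4 wks and had an unadjusted p under 0.05 the same way at 0 days, 12 wks and 18 wks, each age against its own WT pools. There were 44 of them (28 higher, 16 lower), for 30 named genes. They are 2.84% of the probe sets called at 4 wks, and 44.4% of the 99 probe sets that had such a p the same way at the other 3 ages. Psap is among them.

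Pcdhb9 codes for a protocadherin of the beta cluster, proteins that serve in contact between neurons. It read 3275 and 2594 in PS-NA cerebella and 2573 and 2551 in PS-NA cerebra, against 425 and 472 in WT cerebella and 352 and 285 in WT cerebra. The lowest PS-NA pool was above every WT pool many times over. The difference was 2.96 (SE 0.18, adjusted p = 2.68e-05), it was called in all 22 other fits with WT pools of 4 wks, and it was 2.56 at 0 days, 2.72 at 12 wks and 2.73 at 18 wks. Pcdhb12 of the same cluster rose by 1.36 (adjusted p = 0.0162).

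Fgf1, a fibroblast growth factor made by neurons, had signals of 5334 and 6472 in PS-NA cerebella and 3911 and 4566 in PS-NA cerebra. The WT cerebella read 1420 and 1476 and the WT cerebra 1185 and 1339, so the groups did not overlap in either region. That held for 98.3% of called probe sets and 17.6% of all. The difference was 1.85 (SE 0.14, adjusted p = 6.45e-05). A second probe set gave 1.89, and the remaining one differed by -0.55 without passing the test. At other ages Fgf1 was higher by 1.23 at 0 days, 2.57 at 12 wks and 2.62 at 18 wks, and the difference at 4 wks was smaller than the mean of the 2 later ages by 0.75 (SE 0.21, adjusted p = 0.0351). Of 29 measured fibroblast growth factors and receptors 1 rose, Fgf1, and 2 fell, the receptors Fgfrl1 (-0.60) and Fgfr2 (-0.59). Of all genes 1.24% rose and 1.22% fell. With median centring 2 of the 29 rose and none fell, beside 992 of 18193 genes (5.45%) that rose and 119 that fell. Fgfrl1 kept its call in 1 of 8 fits that left out 1 pool, and Fgfr2 in 0 of 8. Both calls were also lost with the replicate number as a block.

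Arhgap26 was the largest of these differences by 1 probe set only. That probe set read 4202 and 2807 in PS-NA cerebella and 1343 and 1589 in PS-NA cerebra, against 123 and 30.7 in WT cerebella and 60.2 and 71.3 in WT cerebra. It was 31.9-fold higher (SE 0.38 on the log2 scale, adjusted p = 6.45e-05). The other probe sets of Arhgap26 differed by 0.49, 0.08 and -0.43. The gene as a whole therefore has no single direction on this array.

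Nfia, a nuclear factor needed for glial and granule cell development, was lower. A dimmer of its probe sets, named here because it differed at every age, read 1024 and 1321 in PS-NA cerebella and 739 and 519 in PS-NA cerebra, against 5663 and 8568 in WT cerebella and 2886 and 3766 in WT cerebra. This is a fall of -2.49 (SE 0.17, adjusted p = 4.65e-05), while the brightest Nfia probe set fell by only 0.60 (adjusted p = 0.0453). Nnt, the mitochondrial enzyme that moves hydride between NADH and NADP, fell by 1.51 and 0.77 in its 2 probe sets. The larger fall is from a probe set whose suffix marks that it can bind other transcripts, the smaller from the brightest. Ddo, an oxidase of acidic D-amino acids, was at 479, 209, 121 and 144 in the PS-NA pools and 2139, 4097, 1094 and 940.7 in the WT pools, in the same order of regions, a fall of -2.93 (SE 0.30, adjusted p = 0.00100). Clec3b, which codes for tetranectin, fell by 2.40.

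Other genes of the group were higher. Gm13306 read 404.5, 462, 1588 and 584 in PS-NA pools and 69.7, 12.2, 36.8 and 36.9 in WT pools, and rose by 3.92 (SE 0.47, adjusted p = 0.00182). Soga3 rose by 2.05. Dhx30, an RNA helicase, rose by 3.90 and 1.44 in probe sets whose suffix marks that they can bind other transcripts, while its brightest probe set differed by 0.02. Car8, a protein of Purkinje cells, rose by 2.06 in 1 probe set and 1.73 in another, and its brightest differed by 0.07. Pigo, of GPI anchor synthesis, rose by 1.71 and 1.13, the latter in a probe set with the suffix described for Dhx30. The brightest probe sets of Gaa, Fmod and Meg3, given below, carry that suffix too.

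**Figure D1:**
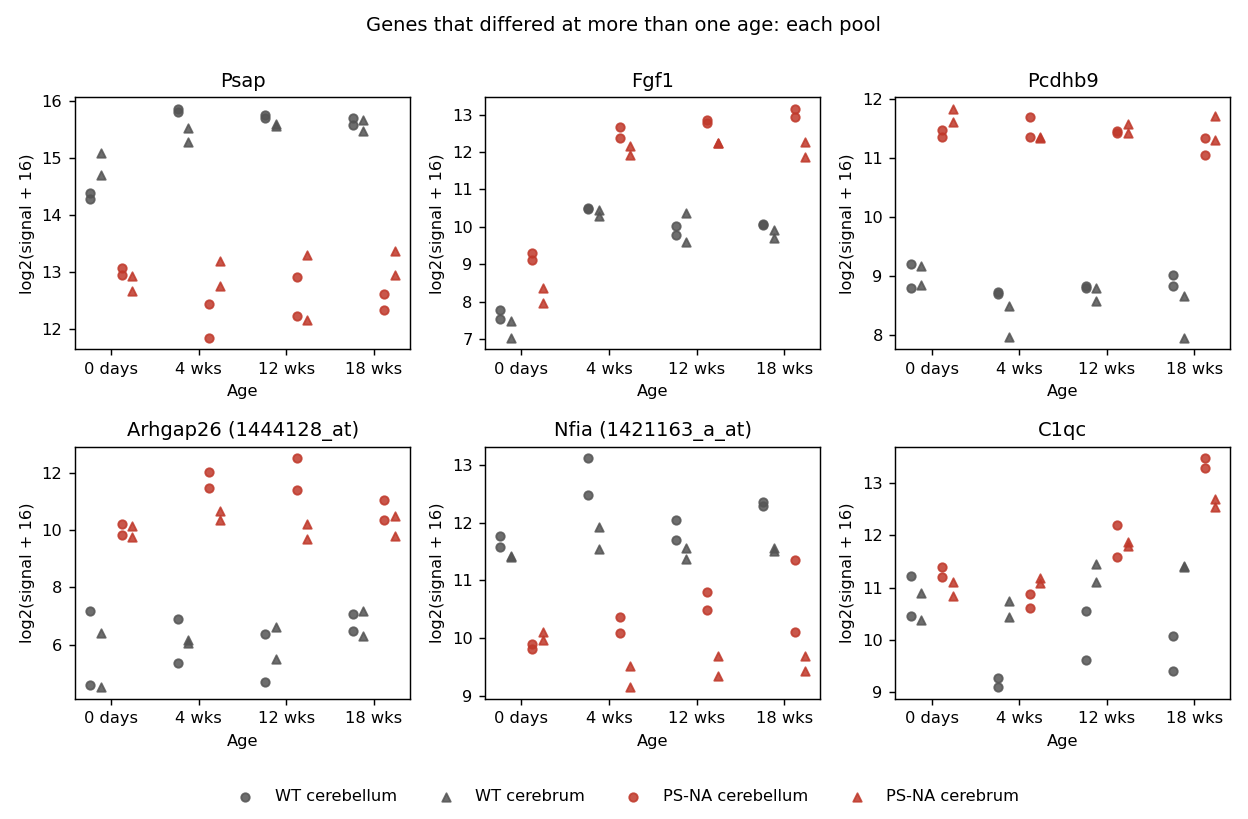
Each point is 1 pool of 3 mice, on log2(signal + 16) after quantile normalization, by age at 0 days, 4, 12 and 18 wks; grey is WT and red PS-NA, with circles for cerebellum and triangles for cerebrum. The red and grey points of Psap, Fgf1, Pcdhb9, Arhgap26 and Nfia, each by the probe set in the panel title, are apart at 4 wks, and those of C1qc are farthest apart at 18 wks.

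The genes of this group lie near each other on a few chromosomes. Of the 30 genes, 29 have a place in RefSeq (GRCm38.p6), which was used only for chromosome and gene order, since the array table names no genome build. Chromosome 9 holds 11 of them, 37.9%, against 5.65% of all measured protein-coding genes. Cep63, Bfsp2, Mrpl3, Atp2c1, Pik3r4, Wdr82 and Ppm1m fall within 29 consecutive measured genes there, and Dhx30, Clasp2, Ctdspl and Clec3b within 120. Chromosome 18 holds 6 (20.7%, against 2.51%), with Pcdhb9, Pcdhb12, Rnf14, Arhgap26 and Fgf1 within 31 measured genes and Arhgap26 next to Fgf1. Chromosome 4 holds 5 (17.2%, against 6.19%), of which Fam219a, Gm13306 and Pigo lie within 15. The others are Soga3, Ddo and Psap itself on chromosome 10, Dhrs7 and Dcaf5 on 12, Nnt on 13 and Lgals1 on 15. The places above count genes by any probe set, and the counts that follow use the brightest only. Of the 50 measured genes on each side of Psap, 3 of 100 were called (3%), near the 2.54% of all placed genes. None of these 3 differed at every age. Nor did Gja1, Sar1a, P4ha1, Serinc1 and Unc5b, which were called there by dimmer probe sets only. Around Fgf1 3 of 100 were called too, and all 3 differed at every age (3%, beside 0.134% of all placed genes). By dimmer probe sets only, Arhgap26, Pcdhb14, Tmed7, Atg12 and Nr3c1 were called there as well. Of these only Arhgap26 differed at every age. Fgf1 belongs to the group itself and was taken as a centre for that reason, unlike Psap as the disrupted gene. The share around Fgf1 is therefore a description.

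**Figure D2:**
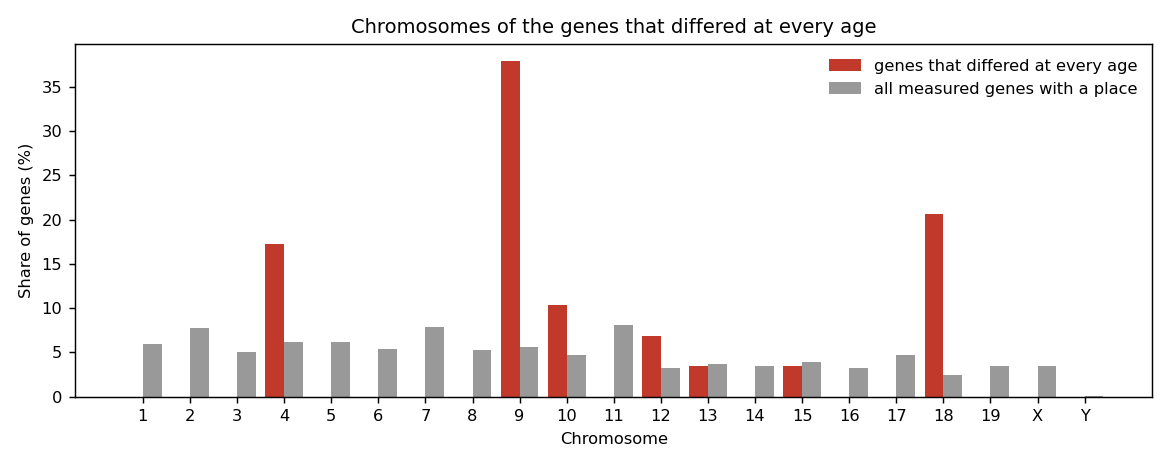
Bars give, for each chromosome, the share in percent of the 29 placed genes that differed at every age (red) and of all measured protein-coding genes with a place (grey). Chromosomes 9, 18 and 4 hold 37.9%, 20.7% and 17.2% of the red genes.

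C1q, the first component of the classical complement pathway, is built of the chains C1qa, C1qb and C1qc, which in brain come from microglia. The study chose these genes on these samples, so their direction here is not independent evidence. The starts of C1qb and C1qc in RefSeq (GRCm38.p6) are shown because the chains rose together. Each runs 5' to 3' along the minus strand, 250 bases before to 50 after the start, at chr4:136886151-136886450 and chr4:136892865-136893164. Capitals mark GAGGAA or its reverse complement TTCCTC, the core that PU.1, the myeloid transcription factor, and other ETS factors bind. The table used has no entry for C1qa.
C1qb: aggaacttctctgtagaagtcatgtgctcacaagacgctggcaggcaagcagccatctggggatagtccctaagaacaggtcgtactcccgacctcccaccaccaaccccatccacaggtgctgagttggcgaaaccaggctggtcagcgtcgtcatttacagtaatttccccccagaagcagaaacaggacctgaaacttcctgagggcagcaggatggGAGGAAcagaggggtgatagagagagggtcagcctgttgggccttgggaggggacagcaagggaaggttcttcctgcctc
C1qc: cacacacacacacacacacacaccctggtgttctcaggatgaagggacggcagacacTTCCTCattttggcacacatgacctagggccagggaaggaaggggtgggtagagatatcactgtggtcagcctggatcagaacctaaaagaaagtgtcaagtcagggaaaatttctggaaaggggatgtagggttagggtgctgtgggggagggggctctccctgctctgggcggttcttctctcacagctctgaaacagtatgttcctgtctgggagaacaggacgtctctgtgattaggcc

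The core occurs 1 time in each of the C1qb and C1qc sequences. It is found, on either strand, in 9289 of 32851 RefSeq promoters of this length (28.3%). A match describes letters, not a bound site.

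C1qa had signals of 3732 and 5076 in PS-NA cerebella against 2676 and 2058 in WT, and of 6887 and 8207 in PS-NA cerebra against 4547 and 4691 in WT. It rose by 0.80 (SE 0.14, adjusted p = 0.0151). C1qc read 1488 and 1874 against 613 and 596 in cerebella, and 2196 and 2297 against 1653 and 1326 in cerebra, a rise of 1.05 (SE 0.21, adjusted p = 0.0237). C1qb read 1933 and 2647 against 1522 and 1202 in cerebella, and 3236 and 3430 against 1858 and 2520 in cerebra, a rise of 0.67 (SE 0.16, adjusted p = 0.0434), and its other probe sets differed by 0.49 and 0.24. In each region both PS-NA pools were above both WT pools for all 3 chains. Such a gap in both regions held for 98.3% of called probe sets and 17.6% of all. C1qc rose in the cerebella taken alone (1.56, adjusted p = 0.0112).

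The C1q differences were larger in older pools. At 0 days C1qa, C1qb and C1qc differed by 0.27, 0.21 and 0.39, at 12 wks by 1.02, 0.97 and 1.18, and at 18 wks by 2.11, 2.02 and 2.43. The difference at 4 wks was below the mean of 12 and 18 wks by 0.77 for C1qa (adjusted p = 0.0366) and by 0.82 for C1qb (adjusted p = 0.0269), and by 0.75 for C1qc without passing the test (adjusted p = 0.0781). Set against the WT pools of 12 wks instead of 4 wks, the PS-NA pools of 4 wks differed by 0.26, 0.14 and 0.26, none of them called. The C1qa call was lost only without the second PS-NA cerebrum pool among fits that left out 1 of the 8 pools (adjusted p = 0.0679). The C1qc call was lost without either PS-NA cerebellum pool, the second PS-NA cerebrum pool, the second WT cerebellum pool or the second WT cerebrum pool (adjusted p = 0.0513 to 0.0718), and the C1qb call without any 1 pool (0.0512 to 0.127). With the actin 3' to 5' ratio as a covariate none of the 3 was called. More cells of a type and more RNA per cell, or fewer and less, cannot be told apart in RNA of whole tissue.

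Of 20 genes of resting microglia 3 rose, the C1q chains, and none fell, beside 1.24% of all genes that rose. None of 23 genes of disease-associated microglia was called, with a median difference of 0.39 at 4 wks and 2.06 at 18 wks, while Tyrobp and Lpl rose in the cerebella taken alone. Trem2, a lipid receptor of microglia, differed by 1.37 (SE 0.64, adjusted p = 0.250) and Cd68, a lysosomal protein of macrophages, by 0.49 (SE 0.23, adjusted p = 0.247). Tyrobp, the adaptor of Trem2, had signals of 1944 and 2038 in PS-NA cerebella against 829 and 973 in WT, and of 2412 and 2138 in PS-NA cerebra against 2494 and 3149 in WT. It rose in the cerebella taken alone (1.21, adjusted p = 0.0199) and differed by -0.35 in cerebra, and the difference between regions did not pass the test (adjusted p = 0.0782). B2m, the light chain of MHC class I, rose by 0.60 (adjusted p = 0.0254). It was 1 call among 17 measured complement, MHC class I and interferon genes, beside 1.24% of all genes that rose.

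None of 18 genes of reactive astrocytes was called, with a median of 0.41. With median centring 4 of them rose, beside the 5.45% of all genes that then rose. Gfap, the filament protein of astrocytes, read 13465, 16722, 14697 and 15028 in PS-NA pools and 11883, 6586, 7925 and 11237 in WT pools. All 4 PS-NA pools were above all 4 WT pools, and the difference of 0.68 (SE 0.18) had an adjusted p of 0.0551. It was 2.32 at 18 wks. Cebpd, a transcription factor of the inflammatory response, differed by 0.67 (SE 0.20, adjusted p = 0.0916), with 1193 and 999 in PS-NA cerebella against 563 and 585 in WT, and 1171 and 1172 in PS-NA cerebra against 804 and 1033 in WT. Over the 35 measured genes that the study names, chosen on these samples, 3 rose, 2 fell and the median was 0.34. Of all genes 1.24% rose and 1.22% fell, with a median of 0.02.

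Among genes of glycosphingolipid breakdown, Psap fell and Galc, the hydrolase of galactosylceramide, rose, out of 13 measured. Of all genes 1.22% fell and 1.24% rose. With median centring 4 of the 13 rose and 1 fell, beside 5.45% and 0.654% of all genes. Galc read 572, 514, 542 and 347 in PS-NA pools and 224, 362, 93.2 and 154 in WT pools, a difference of 1.61 (SE 0.33, adjusted p = 0.0254). It differed by -0.77 at 12 wks and 0.06 at 18 wks, and its call held in 2 of 8 fits that left out 1 pool. None of 17 genes of glycosphingolipid and ceramide synthesis and none of 3 prosaposin receptors was called. Of 42 other lysosomal genes 3 rose, none fell and the median was 0.17, beside 1.24% of all genes that rose and a median of 0.02. With median centring 6 rose and none fell, beside the 5.45% of all genes that then rose, with a median of 0.20.

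The lysosomal genes that rose were Gaa, the acid alpha-glucosidase (0.51), and Atp6v1h and Atp6v0a1, subunits of the proton pump that acidifies the lysosome (0.49 and 0.81). Atp6v0a1 read 12884 and 12369 in PS-NA cerebella and 13833 and 15956 in PS-NA cerebra, against 11918 and 7913 in WT cerebella and 6958 and 5198 in WT cerebra. Its other called probe sets rose by 2.39 and 1.56. By their brightest probe sets these 3 genes were called in no more than 1 of 8 fits that left out 1 pool. In the cerebra taken alone Ctsa and Lgmn, both lysosomal proteases, also rose, by 0.70 and 0.92. Ctsd, a major cathepsin, differed by 0.14 (adjusted p = 0.510) at 4 wks and by 1.02 at 18 wks.

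None of 21 measured myelin and oligodendrocyte genes was called by its brightest probe set (median -0.02), and Mbp, the basic protein of myelin, differed by -0.07. Of 14 genes on the Purkinje cell list 1 fell, Dlg4, beside 1.22% of all genes, and the list's median was 0.07. Dlg4 is given again below as a postsynaptic scaffold, so its fall is not particular to Purkinje cells. Calb1, the calcium buffer of Purkinje cells, read 59441 and 54074 in PS-NA cerebella and 50319 and 52457 in WT cerebella, with a difference of 0.03 over both regions. Markers of other neurons had medians of 0.29 (thalamus, 1 of 13 rose), 0.27 (striatum, none of 13 called) and -0.19 (cerebellar granule cells, none of 13 called), beside 0.02 over all genes.

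Among synaptic genes 1 of 26 of synaptic vesicles rose, 2 of 29 glutamate receptors and scaffolds fell, and of 17 GABA genes 1 rose and 2 fell, beside 2.46% of all genes called. Dlg4, the postsynaptic scaffold PSD-95, fell by 1.23 (adjusted p = 0.00149) while its other probe sets differed by -0.56 and 0.25. Camk2a, the kinase of excitatory synapses, fell by 1.14, with 22578 and 19886 in PS-NA cerebra against 58634 and 67836 in WT cerebra. Gabra2 (-0.67, not called with median centring) and Gabra3 (-0.96), subunits of GABA receptors, fell. Slc32a1, the vesicular GABA transporter, rose by 0.45 and Syp, synaptophysin of synaptic vesicles, by 0.73. Dlg4 and Camk2a kept their calls in 8 of 8 fits that left out 1 pool, Gabra2, Gabra3 and Syp in 2 and Slc32a1 in 0.

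Of 14 genes of meninges and fibroblasts, Col1a1 (1.57) and Fmod (0.67), both of the extracellular matrix, rose, beside 1.24% of all genes. Each call held in 2 of 8 fits that left out 1 pool, and that of Fmod was lost with the replicate number as a block. With median centring 5 of the list rose, where 5.45% of all genes did. The mean log2 value of that list was 11.05 to 11.50 in the PS-NA pools and 10.79 to 11.01 in the WT pools. None of 7 blood cell genes was called, and their mean log2 value was 10.5 in the second PS-NA cerebellum pool, 7.90 to 8.44 in the other PS-NA pools and 7.06 to 8.42 in WT pools. The same pool was the highest for the list of the choroid plexus (10.8, against 9.39 to 10.2 in the other 7 pools), of which none of 16 genes was called. The part of meninges and blood in the other results was not tested. Pdia4, a chaperone of the endoplasmic reticulum, read 3881, 3351, 2638 and 2958 in PS-NA pools and 1310, 1263, 1106 and 949 in WT pools. It rose by 1.45 (SE 0.13, adjusted p = 0.000336) and was called among 22 genes of endoplasmic reticulum stress, of which 3 rose with median centring, where 5.45% of all genes did.

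**Figure D3:**
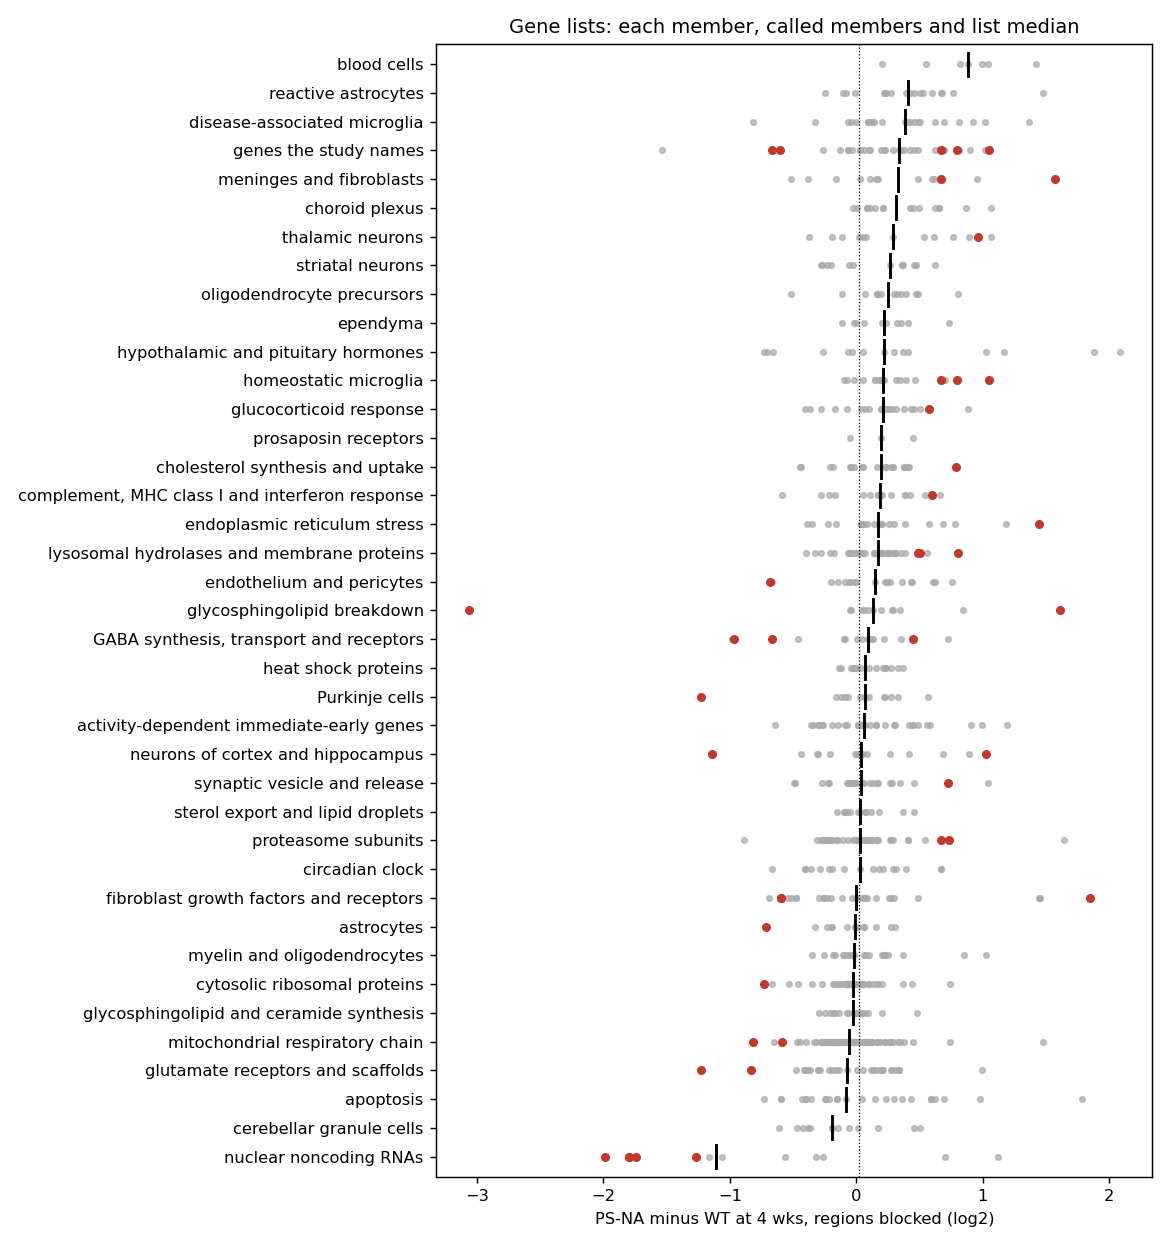
Each point is 1 gene of 39 lists, placed by its difference between PS-NA and WT mice at 4 wks (log2, regions blocked); red points were called, the black bar is the median of the list and the dotted line the median of all genes, 0.02. The median of nuclear noncoding RNAs, -1.11, is farthest to the left.

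The list with the highest share of called genes was that of noncoding RNAs that stay in the nucleus: 5 of 12 fell (41.7%) and the median was -1.11, beside 2.46% called and a median of 0.02 over all genes. Meg3 and Rian, from 1 imprinted cluster, fell by 1.75 and 1.80. Snhg11, a host of small nucleolar RNAs, fell by 1.80, Miat by 1.27 and Kcnq1ot1, an imprinted antisense transcript, by 1.99. With median centring the list's median was -0.96, with 5 members lower and 1 higher.

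Rian read 774 and 1180 in PS-NA cerebella and 2133 and 1686 in PS-NA cerebra, against 3989 and 2388 in WT cerebella and 5351 and 10782 in WT cerebra. Meg3 read 4696, 1609, 11483 and 4335 in PS-NA pools and 9184, 15714, 15410 and 20740 in WT pools, and its 3 called probe sets fell by 1.75, 2.02 and 1.72. Miat read 613 and 297 against 1631 and 1206 in cerebella and 3521 and 1545 against 4106 and 5061 in cerebra. In each region both PS-NA pools were below both WT pools for these 3 RNAs, but pools of 1 group lay up to several times apart. Such a gap in both regions held for 98.3% of called probe sets and 17.6% of all. With the actin 3' to 5' ratio as a covariate none of the 5 that fell was called (adjusted p = 0.141 to 0.289). The call of Rian held in 8 of 8 fits that left out 1 pool, those of Meg3 and Snhg11 in 4 and those of Miat and Kcnq1ot1 in 2. With the mean of a gene's probe sets Rian, Meg3, Miat and Kcnq1ot1 were not called. In a fit of the 32 arrays of 4 ages Rian and Snhg11 were not called. Malat1, also nuclear, went the other way: its brightest probe set differed by 0.70 (adjusted p = 0.129), and a dimmer one rose by 1.27 (adjusted p = 0.0276).

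The falls of these RNAs did not recur at 12 wks. The list's median was -0.60 at 0 days, 0.43 at 12 wks and -0.42 at 18 wks. Meg3 differed by 0.61 at 12 wks and -0.97 at 18 wks. The difference of Kcnq1ot1 at 4 wks was below that of the later ages by 1.93 (adjusted p = 0.0225). Against WT pools of 12 wks, Rian of PS-NA mice of 4 wks differed by 0.55, the opposite direction.

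**Figure D4:**
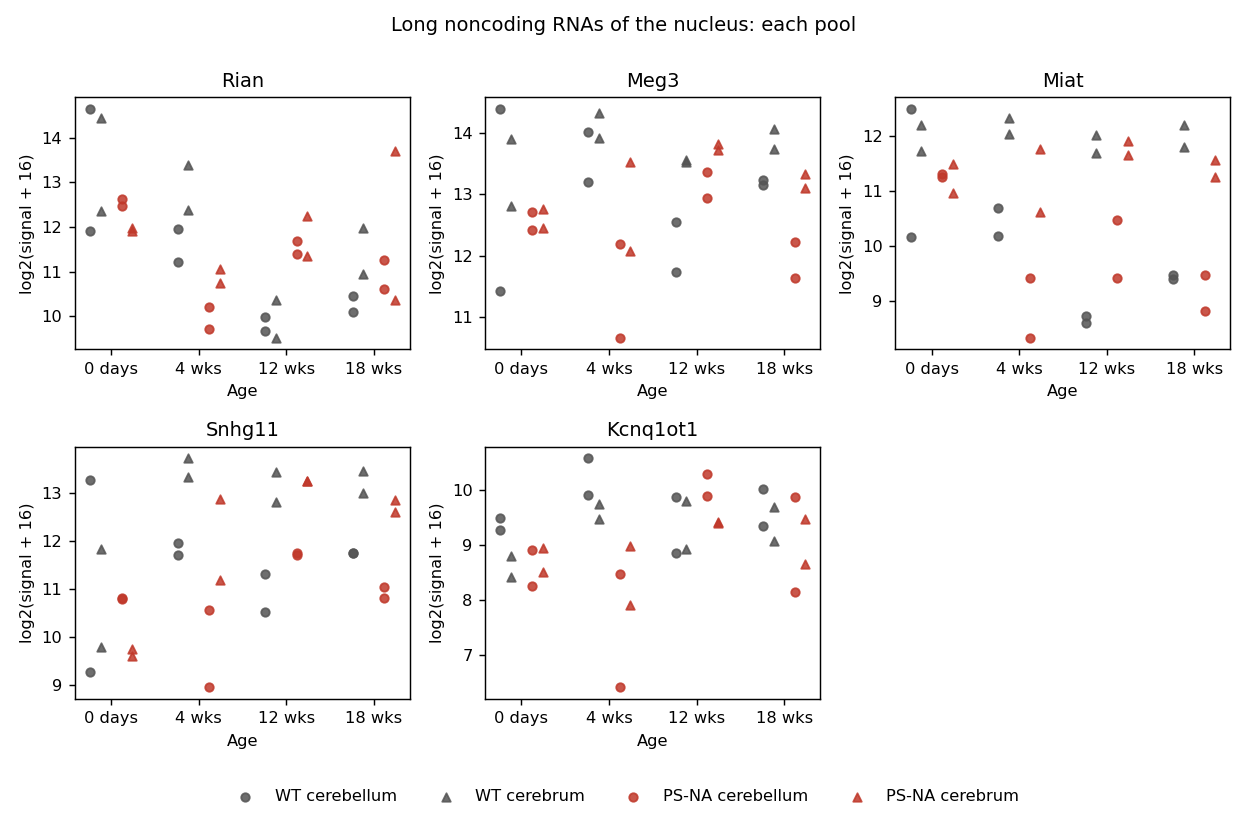
Each point is 1 pool on log2(signal + 16) after quantile normalization, for Rian, Meg3, Miat, Snhg11 and Kcnq1ot1, by age; grey is WT, red PS-NA, circles cerebellum and triangles cerebrum. At 4 wks red lies below grey within each region, and at 12 wks it does not.

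The largest rises and falls had to be above the median brightness only in the genotype where they were high. In 12 of the 15 rises, all but Pcdhb9, Soga3 and Fgf1, and in 8 of the 15 falls, the other genotype was below that median in both regions, so the rule bears on their place among the largest. Among the 15 genes that rose most by the naming rule, 4 belong to the group that differed at every age besides Fgf1: Gm13306, Pcdhb9, Bfsp2 and Soga3. Slc1a5, a glutamine transporter, rose by 2.51 (adjusted p = 0.0295), with 213, 627, 296 and 349 in PS-NA pools and 133, 36.9, 114 and 16.5 in WT pools. Sema3b, a secreted semaphorin that guides axons, rose by 2.28, Cd248, a pericyte and fibroblast glycoprotein, by 1.93 and Traf1, an adaptor of TNF receptors, by 1.92. Pola2, a subunit of DNA polymerase alpha, rose by 1.65. Zc3h3 (2.18), Jmjd4 (1.95), Arhgap10 (1.91), 1700016K19Rik (1.84) and Gm20346 (1.82) complete the rises. Gm13306, Pcdhb9, Soga3 and Fgf1 kept their call in 8 of 8 fits that left out 1 pool, Bfsp2 in 2 and the other 10 in 1 to 6. None of these genes other than the 5 had an adjusted p under 0.05 in the pools of the other 3 ages together.

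Among the 15 falls, Max, the partner of Myc, read 249, 574.5, 314.5 and 394.5 in PS-NA pools and 3027, 3475, 1685 and 1847 in WT pools, a difference of -2.62 (adjusted p = 0.000336). Msl2, a ubiquitin ligase of the MSL complex, fell by 2.24 in its brightest probe set, and its others differed by -0.39 and -0.64. Both calls held without any 1 of the 8 pools. Max differed by 0.40 at 12 wks and 0.87 at 18 wks, and Msl2 by 1.59 and 0.87, none of which passed the test at its own age (adjusted p = 0.794, 0.442, 0.0933 and 0.489), while the gap to 4 wks passed for both. Islr2, a membrane protein of growing axons, fell by 2.67, with 17.8, 23.1, 101.5 and 154 in PS-NA pools and 281.5, 70.0, 1543 and 1558 in WT pools. Fbxo36 fell by 2.03, Pou5f2 by 2.56, C86187 by 2.53, Gm17508 by 2.42, Fam243 by 2.31, Gm38434 by 2.22, 1700051A21Rik by 2.07 and Gal3st2 by 1.82. Psap, Ddo, Clec3b and Kcnq1ot1, given above, are the remaining falls. Without any 1 pool Psap, Ddo, Clec3b, C86187, Gm17508 and Fbxo36 were still called, and the rest, other than Max and Msl2, were called in 1 to 5 of 8 such fits.

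Taken by region, 389 probe sets were called in cerebella (0.864%; 164 higher, 225 lower) and 1517 in cerebra (3.37%; 961 higher, 556 lower). Of these, 113 were called in both regions in the same direction and 2 in opposite directions. The difference between regions itself was called by limma for 0 probe sets (0%), with 5336 at an unadjusted p under 0.05, and an ANOVA without moderation called 2. The smallest adjusted p, 0.0593, belonged among others to Vip, a neuropeptide of interneurons, which differed by 1.52 in cerebella and -0.66 in cerebra. Genes called in only 1 region are thus not shown to differ between regions.

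The pools of other ages showed how far the calls at 4 wks were shared over age. Of the 1550 called probe sets, 76% had the same sign at 0 days, 19.5% at 12 wks and 56.1% at 18 wks, where all probe sets gave 60.1%, 39.7% and 53.8%. At 12 wks, 460 of them (29.7%) had an unadjusted p under 0.05 in the opposite direction and 72 in the same. Probe sets that rose at 4 wks had a median of 1.01 there, 0.24 at 0 days, -0.30 at 12 wks and -0.03 at 18 wks. Those that fell had a median of -1.10 at 4 wks, -0.31 at 0 days, 0.39 at 12 wks and -0.18 at 18 wks. The pools of each age are separate mice, while all ages share 1 fit of the array normalization.

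A test of 4 wks against the mean of 12 and 18 wks called 2332 probe sets (5.18%), and 995 of the 1550 called at 4 wks (64.2%) were among them. This test uses the same 4 wks pools as the calls, so it does not stand apart from them. Over the pools of 0 days, 12 wks and 18 wks together, 306 probe sets were called (0.679%), and 68 of the 1550 were among them in the same direction and 6 in the opposite. The 68 are 4.39% of the calls at 4 wks and 22.2% of the 306. Atp6v0a1 (1.06), Pdia4 (1.82), Camk2a (-1.53) and Dlg4 (-1.56) had differences at 4 wks that were apart from the later ages, the values being the gaps between them.

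**Figure D5:**
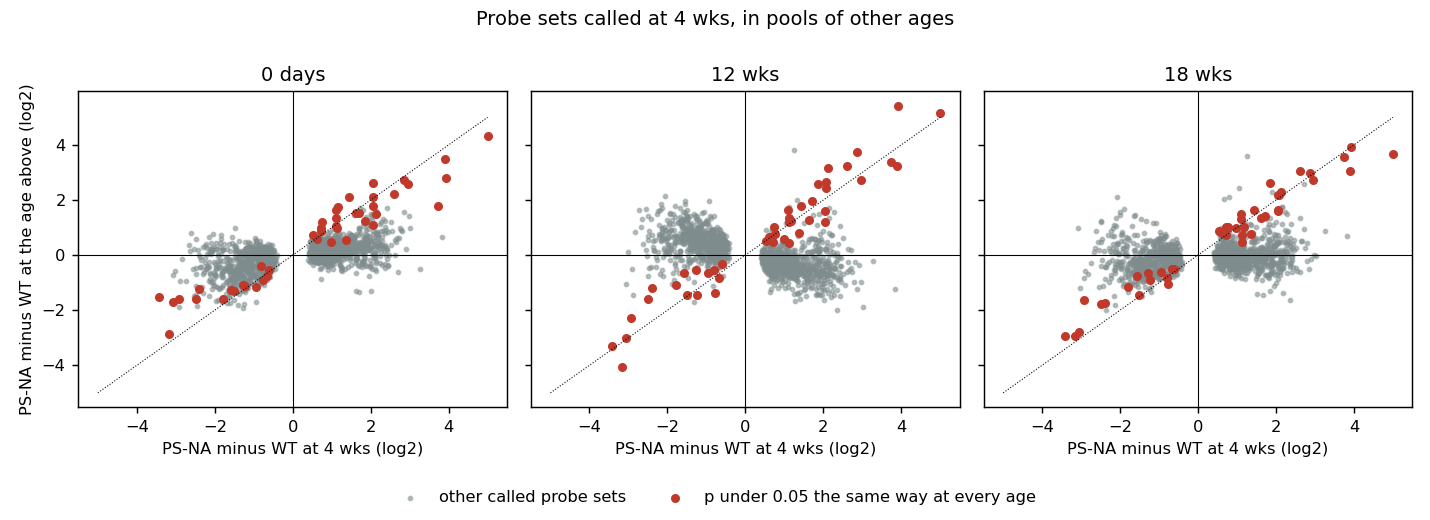
Each point is 1 of the 1550 probe sets called at 4 wks, with its difference at 4 wks (horizontal, log2) and at 0 days, 12 wks or 18 wks (vertical, log2); red points are the 44 with p under 0.05 the same way at every age and the dotted line marks equal differences. Red points follow the line, but their side of 0 was set by how they were chosen. Grey points, the remaining calls, spread about 0 and at 12 wks lie mostly on the opposite side.

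The WT pools of 20 days and 12 wks bracket 4 wks in age and give a second view. Over the probe sets that rose, the WT pools of 4 wks lay below the mean of the WT pools on either side in age (medians of -0.59 for cerebellum and -0.62 for cerebrum), and the PS-NA pools lay above it (0.29 and 0.50). Over those that fell, WT was above it (0.64 and 0.41) and PS-NA below (-0.59 and -0.54). Both WT pools of 4 wks lay past the same end of these neighbours' range for 44.6% of called probe sets in cerebella. In cerebra both did so for 39.9%. Both PS-NA pools did so for 29.6% in cerebella and 36.8% in cerebra. Over all probe sets the values were 19.4% and 19.6% for WT and 21.2% and 17.0% for PS-NA pools. Since the calls were chosen on these WT pools, these values are a description. Against WT pools of 12 wks 111 probe sets were called, 51 of them shared with the 1550 in the same direction. Of those 51, 30 belong to the 44 that differed at every age. The PS-NA pools of 4 wks and the WT pools of 12 wks had both served to choose the 44. This overlap is therefore a description too.

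Probe sets of 1 gene often disagreed. Of 1152 genes with any called probe set, 999 had more than 1 probe set. In 98 of the 999 at least 2 were called the same way, in 361 all had the same sign, and in 23 called probe sets went in opposite directions, Slc1a2 and Dlg2 among them. For 704 the brightest probe set was not called. Gja1, the gap junction protein of astrocytes, rose by 1.90 in 1 probe set (8543 to 9974 in PS-NA and 2116 to 2789 in WT pools) while its brightest probe set differed by -0.19 (29241 to 34838 and 34926 to 41619). Mbp gave -1.12 in a dim probe set beside -0.07 in its brightest.

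4L/PS-NA mice carry the same prosaposin alleles as PS-NA mice plus a homozygous mutation in the gene of lysosomal glucocerebrosidase, on a mixed background, FVB for 50% and C57BL/6 and 129SvEvBrd for 25% each. Their 4 pools of 4 wks share the WT pools with PS-NA mice, so the values stand side by side only. The same fit called 20 probe sets (0.0444%), and their cerebellum pools correlated at 0.821, below the other pairs. Psap differed by -3.07 in PS-NA and -2.88 in 4L/PS-NA mice, Pcdhb9 by 2.96 and 2.91, Fgf1 by 1.85 and 2.14 and Nfia (dimmer probe set) by -2.49 and -2.44. C1qa, C1qb and C1qc differed by 0.80, 0.67 and 1.05 in PS-NA and by 1.12, 1.47 and 2.10 in 4L/PS-NA mice (adjusted p = 0.102, 0.0557 and 0.102). The Nnt probe set with the larger fall differed by -1.51 in PS-NA and -0.22 in 4L/PS-NA mice.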

How the data were processed

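RNA was measured on the Affymetrix Mouse Genome 430 2.0 array. The deposited values are linear intensity signals per probe set, made by the authors in GCOS, version 1.1 by the submitters' processing notes, with every array brought to a trimmed mean of 1500 (trim 2%). RMA, the study's normalization, needs single-probe data and was not repeated. Here 16 was added, log2 was taken and all 68 arrays were quantile normalized. Of 45101 probe sets, 64 controls were left out and 45037 tested with no filter. The moderated test of limma 3.58.1 (intensity trend, R 4.3.3, statmod 1.5.0) was applied to genotype with region as a block, to each region, to the difference between regions, and to 4 wks against 12 and 18 wks. All adjusted p-values are Benjamini-Hochberg values from limma over all probe sets. The study used a mixed-model ANOVA. Fits were tested on simulated data. No scan date or batch was known, and the number of arrays limits precision.

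Platform annotation gives 34958 probe sets 1 symbol (34754 updated through the gene ID), 932 several and 9211 none, and only the first were named. Named genes are Psap and the 15 largest rises and falls among calls with no overlap of pools in both regions. These rises and falls also had a mean log2 value above the median in the brighter genotype of at least 1 region. The 10 smallest p of the region test and up to 4 members of each list by p were named too. So were the 10 smallest p of the age test among brightest probe sets called at 4 wks and in that test. Genes that differed at every age, and probe sets named where they disagreed with the brightest, were chosen after their values were seen. The comparison and the 39 lists (890 entries, 831 measured) were chosen with earlier results of these data known. Alternatives changed scaling, the value added, filter, arrays fitted, moderation, blocks and covariates, left out each pool, or averaged probe sets. The labels do not say what a replicate number marks. Correlations of deviations between groups were -0.08 to 0.04, so pools were not paired, although Xist was high in every pool numbered 1 and low in every pool numbered 2.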

Additional observations from a re-analysis of the deposited data

Results flagged for a closer look

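The difference between PS-NA and WT mice at 4 wks was not that of 12 and 18 wks for 995 of the 1550 called probe sets, by the test of the difference itself (limma, adjusted p under 0.05). The values that follow are the log2 difference at 4 wks minus the mean of the later ages. Among the genes named as rises, the gap was 2.71 for Zc3h3, 2.50 for Arhgap10, 2.44 for Traf1, 2.15 for Jmjd4, 1.87 for Sema3b, 1.81 for Pola2 and 1.78 for 1700016K19Rik. Fgf1 had a gap of -0.75, its rise being larger later. Among the falls, the gap was -3.47 for Msl2, -3.26 for Max, -3.25 for Islr2, -2.95 for Fam243, -2.90 for Gm38434, -2.89 for Pou5f2, -2.61 for C86187, -2.50 for Fbxo36, -2.35 for 1700051A21Rik and -1.93 for Kcnq1ot1. The same 4 wks pools gave the calls and this test.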

How the results depend on the processing

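The 1550 calls over both regions became 3173 with median centring, 2628 with a mean for each genotype and region, 3158 with a random subject, 1018 with the replicate number as a block, 149 with no intensity trend, 120 genes with the mean of a gene's probe sets, 54 with the actin ratio as a covariate and 36 by an ANOVA without moderation. They became 111 against WT pools of 12 wks and 3337 against WT pools of 20 days, alternatives added after seeing the data. Leaving out 1 pool gave 249 to 1309. Only the first pool of PS-NA cerebellum, of PS-NA cerebrum and of WT cerebellum could be left out without the count falling more than 1.5 times (1198, 1095 and 1309). In cerebella (389) the counts were 812 with median centring, 1052 with dim probe sets left out, 209 with array weights, 21 with the actin ratio, 8 with the mean of probe sets, 7 by ANOVA, 0 with no trend, 46 against WT of 12 wks, 4929 against WT of 20 days and 37 to 404 without 1 pool. In cerebra (1517) they were 883 in a fit of 32 arrays, 323 with the mean of probe sets, 12 by ANOVA, 0 with no trend, 0 with the actin ratio, 19 against WT of 12 wks and 53 to 1573 without 1 pool. The difference between regions (0) gave 16 with dim probe sets left out, 1 with 32 arrays, 2 by ANOVA and 0 to 42 without 1 pool. The age test (2332) gave 1110 to 2049. The cause of these changes was not tested. Of 102 named probe sets, 101 kept their call with 1 added, 100 with 64, 88 with median centring, 78 with the replicate block, 21 with no trend, 15 with the actin ratio and 7 by ANOVA, and 38 to 79 without 1 pool; none of these turned sign. Signs turned against WT of 12 wks for Zc3h3 (-0.61), Jmjd4 (-0.081), Arhgap10 (-0.27), Gm20346 (-0.12), Islr2 (0.0074), Galc (-0.076), Atp6v0a1 (-0.052), B2m (-0.22), Syp (-0.12), Slc32a1 (-0.070), Fgfrl1 (0.058), Rian (0.55), Psmc4 (-0.012), Nell1 (-0.027), Evi5 (0.13), Srek1 (0.22) and Spock1 (-0.14). Against WT of 20 days they turned for Cd248 (-0.39), Col1a1 (-0.085), Slco1a4 (0.12), Dhcr7 (-0.13), Gabra2 (0.21), Gabra3 (0.34), Ndufa5 (0.14) and Pfn1 (-0.25). With the mean of probe sets they turned for Slc1a2 (0.36), Syp (-0.17), Dlg2 (0.54), Mrpl3 (0.16) and Mcu (0.048). With 2 pools a group, small differences may be missed.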

Other observations

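Other lists gave few calls. Psmb2 (0.74) and Psmc4 (0.67), subunits of the proteasome, rose among 39. Ndufa5 (-0.59) and Cox8c (-0.81) fell among 80 genes of the respiratory chain (2.5%, beside 2.46% of all genes called; in cerebra alone 8 of 80 fell, with a median of -0.19, beside 272 of 18193 genes), and Rpl37 (-0.73) among 45 ribosomal proteins. Dhcr7, the last enzyme of cholesterol synthesis, rose by 0.79 (1 of 20), Sgk1, a kinase that glucocorticoids induce, by 0.57 (1 of 20), and Rgs16 by 0.96 (1 of 13 genes of thalamic neurons). Nrgn, a postsynaptic protein of forebrain neurons, rose by 1.03, beside Camk2a, which fell, among 16 genes of cortex and hippocampus. Slc1a2, the glutamate transporter of astrocytes, fell by 0.71 (1 of 14), and Slco1a4, a transporter of the blood-brain barrier, by 0.68 (1 of 19). Mpst, an enzyme of sulfur metabolism, Nell1, Evi5, Pfn1, Srek1, Mcu, Spock1 and Zfp945 are, with Pdia4 and Msl2, 10 genes ranked by the age test. They have its smallest p among brightest probe sets called both at 4 wks and in that test. Outside this ranking a dimmer probe set of Gja1 had a smaller p (2.74e-11, limma). None of the measured genes of oligodendrocyte precursors (14), cerebellar granule cells (13), striatal neurons (13), hypothalamic and pituitary hormones (15), choroid plexus (16), ependyma (10), immediate-early genes (34), the circadian clock (17), sterol export (13), heat shock proteins (16) or apoptosis (25) was called by limma. With median centring 3 of the precursor genes and 4 of the immediate-early genes rose, beside 5.45% of all genes.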
